A study of Homo sapiens with 6 samples.

Results

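The abundant long non-coding RNAs MALAT1, NEAT1, KCNQ1OT1, TUG1, NORAD and OIP5-AS1 were followed through ribosome profiling libraries of HEK293T cells, a transformed human embryonic kidney line that carries the large T antigen. These 6 genes were chosen by name, and each matched 1 of the 60420 gene identifiers used, of which 15457 were annotated as long non-coding RNA (lncRNA) genes. PRMT1 and PRMT4 (CARM1) are enzymes that methylate arginines in proteins. Cells had received either the vehicle DMSO, a PRMT1 inhibitor or a PRMT4 inhibitor, and neither the compounds nor their doses and times appear in the labels. For each treatment, 1 input library measured RNA level and 1 library held footprints, the RNA fragments that ribosomes shield from RNase I, cut out of the monosome fractions of a sucrose gradient. The description of every sample reads as protected RNA, while the sample titles tell the input libraries from the footprint libraries. With 1 library per group there was no replicate error, no test was possible, and every difference describes these 6 libraries. Values are TPM, a share of each library scaled by gene length and then to a fixed total, so levels of different genes can be set beside each other. Sequencing depth is unknown, so no counting interval is given.

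A lncRNA carries no known protein product, and where it lies in the cell decides what it can meet. MALAT1 gathers at nuclear speckles, stores of splicing factors, and NEAT1 is the scaffold of paraspeckles, nuclear bodies that hold RNA-binding proteins such as SFPQ and NONO. KCNQ1OT1 stays at its own locus and silences an imprinted gene cluster. NORAD lies mostly in the cytoplasm and binds Pumilio proteins such as PUM2, which otherwise repress messages. OIP5-AS1, also called Cyrano, is mainly cytoplasmic and pairs with the microRNA miR-7. TUG1 is found in both compartments. Ribosomes work in the cytoplasm, so the footprint values of the nuclear RNAs serve as a check on nuclear RNA carried into the footprint libraries.

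The sequences below carry the features that set these RNAs apart, taken from the longest GENCODE release 29 transcript of each gene (GRCh38 models), written 5′ to 3′ as DNA with positions counted from the transcript's start. MALAT1 and NEAT1 both hold, near or at the 3′ end of the transcript model, a U-rich tract followed by an A-rich tract. Such tracts are known to form part of a triple helix that protects a 3′ end made without a poly(A) tail. The stretches shown are those searched and are not given as the whole helix. The capitals mark the motifs searched, TTTTGCTTTT and AAAAGCAAAA on the transcript's strand, at most 80 bases apart. They are the last 10 bases of the longest run that the final 60 bases of NEAT1 share with MALAT1, and the last 10 bases of NEAT1, so the search was built on both RNAs and their match is given as a description. Among the longest transcripts of 15457 lncRNA genes, 2 genes (0.0129%) held this arrangement, MALAT1 at bases 8310 to 8355 of 8708 and NEAT1 at bases 22693 to 22743 of 22743.
MALAT1: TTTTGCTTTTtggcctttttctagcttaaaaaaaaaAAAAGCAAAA
NEAT1: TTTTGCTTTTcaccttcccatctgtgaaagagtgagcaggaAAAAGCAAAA

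NORAD held 15 copies of the Pumilio motif TGTANATA (transcript strand, overlaps counted), or 2.81 per kb. At least as many were found in 4 of the 15457 genes, NORAD included, and 19.01% of the 5371 lncRNA transcripts of at least 1000 bases held any. TUG1 held 2 copies, NEAT1 6, OIP5-AS1 1, KCNQ1OT1 9 in its 91667 bases, and MALAT1 0. In NORAD, 3 pairs of copies started within 10 bases of each other, and the motifs stand in capitals.
NORAD bases 1436 to 1464: tatctgTGTATATAgTGTACATAaaggac
NORAD bases 2633 to 2661: ctatacTGTATATAtTGTATATAtaacgg
NORAD bases 3269 to 3297: gtgctgTGTATATAgTGTATATAagcgga

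OIP5-AS1 is known for a site of near-complete pairing with miR-7. The mature miR-7 (RefSeq, GRCh38.p14) is shown with its seed, bases 2 to 8, in capitals. The site at bases 2869 to 2894 of 8829 is shown with 14 bases complementary to the 3′ end of the microRNA and the 7 bases complementary to its seed in capitals. OIP5-AS1 held 3 matches to the seed in all. These letters are descriptions of the reference transcripts, and the libraries give 1 value per gene, so no footprint can be placed on any of them.
hsa-miR-7-5p: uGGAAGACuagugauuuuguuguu
OIP5-AS1: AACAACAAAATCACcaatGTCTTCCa

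Open reading frames were short for the length of these transcripts. The longest frame from ATG to a stop codon had 70 codons in MALAT1, 137 in NEAT1, 210 in KCNQ1OT1, 135 in TUG1, 108 in NORAD and 93 in OIP5-AS1, against a median of 89 codons over the lncRNA transcripts of at least 1000 bases. It covered from 0.691% of KCNQ1OT1 to 6.12% of NORAD. GC content lay between 38.4% in OIP5-AS1 and 44.1% in NEAT1, below the median of 46.3% for the same transcripts.

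The libraries held between 30576 and 30860 genes above 0 in input and between 20485 and 21161 in footprints. Of 11 markers of other cell types, only HBA1 had a mean above 5 TPM, and HBB, PTPRC and ALB were at or near 0. The HEK293T markers VIM and KRT18 stood at 104 to 121 TPM and 31.5 to 37.4 TPM in input, while the kidney factor PAX2 and the neurofilament NEFM stayed below 1 TPM there. The footprint change under each inhibitor label followed the input change of the other label more closely than that of its own. Across 9040 genes, Pearson's r of the PRMT1-label footprint change was 0.26 with its own input and 0.45 with the PRMT4-label input. For the PRMT4-label footprints it was 0.21 with its own input and 0.32 with the other. The libraries are therefore named by their labels, and results that join footprints to inputs are given for both pairings. In bulk RNA, fewer cells holding an RNA and less of it per cell cannot be told apart.

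MALAT1 (ENSG00000251562.7_2, chromosome 11) was the most abundant of the 6 RNAs in every library. Its input level was 177 TPM under DMSO, 157 TPM under the PRMT1 label and 269 TPM under the PRMT4 label. In footprints it stood at 51.4 TPM under DMSO, 204 TPM under the PRMT1 label and 61.2 TPM under the PRMT4 label. The PRMT1-label footprint library was thus far above the other footprint libraries and, alone among them, above the input of its own label. MALAT1 made up 60.3% of the 6 RNAs' TPM in the DMSO input and 84.8% in the PRMT1-label footprints.

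NEAT1 (ENSG00000245532.7_3, chromosome 11) stood at 14.2 TPM in the DMSO input, and at 22.4 and 26.5 TPM in those labelled PRMT1 and PRMT4. Its footprint values were 1.87, 3.82 and 2.94 TPM in the same order, which is kept below wherever 3 values follow each other. DMSO was the lowest library of both kinds. The gene value adds up the short and the long NEAT1 isoform, and only the long form builds paraspeckles.

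KCNQ1OT1 (ENSG00000269821.1_3, chromosome 11) was not abundant in these cells, against its grouping here. It stood at 0.36, 0.38 and 0.31 TPM in the inputs and at 0.01, 0.02 and 0.01 TPM in the footprints. The table prints 2 decimals, so the footprint values lie within 2 steps of 0, and no ratio is given for this gene. It lies antisense within KCNQ1, which was itself at 0.21 to 0.43 TPM in input, and the sources used here do not say whether counting used strand, so reads of such overlapping pairs, OIP5-AS1 and antisense RNA at MALAT1 included, cannot be told apart.

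TUG1 (ENSG00000253352.8_3, chromosome 22), an RNA with roles in gene silencing, stood at 42.9, 38.2 and 31.3 TPM in the inputs and at 8.51, 13.5 and 8.35 TPM in the footprints. The PRMT1-label footprints were the highest of the latter. GENCODE release 29 lists TUG1 as a lncRNA, while the RefSeq table lists its gene as protein-coding.

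NORAD (ENSG00000260032.1_3, chromosome 20) was the steadiest of the 5 RNAs above 1 TPM in input, at 30.4, 35.1 and 27.7 TPM, a ratio of 1.27 from highest to lowest. Its footprints stood at 9.29, 12.0 and 9.08 TPM. OIP5-AS1 (ENSG00000247556.6_2, chromosome 15) stood at 28.8, 31.5 and 17.9 TPM in the inputs and at 5.55, 7.17 and 4.44 TPM in the footprints. Both had their highest value under the PRMT1 label and their lowest under the PRMT4 label, in input and in footprints alike.

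By input level the order was MALAT1, TUG1, NORAD, OIP5-AS1, NEAT1 and KCNQ1OT1 when ranked by the median of the 3 inputs. The ranges of TUG1 and NORAD overlapped, as did those of NORAD and OIP5-AS1 and those of OIP5-AS1 and NEAT1. MALAT1 and KCNQ1OT1 stood clear of their neighbours. Among all lncRNA genes MALAT1 ranked 14, 15 and 12 in the inputs, and 44, 18 and 37 in the footprints.

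**Figure D1:**
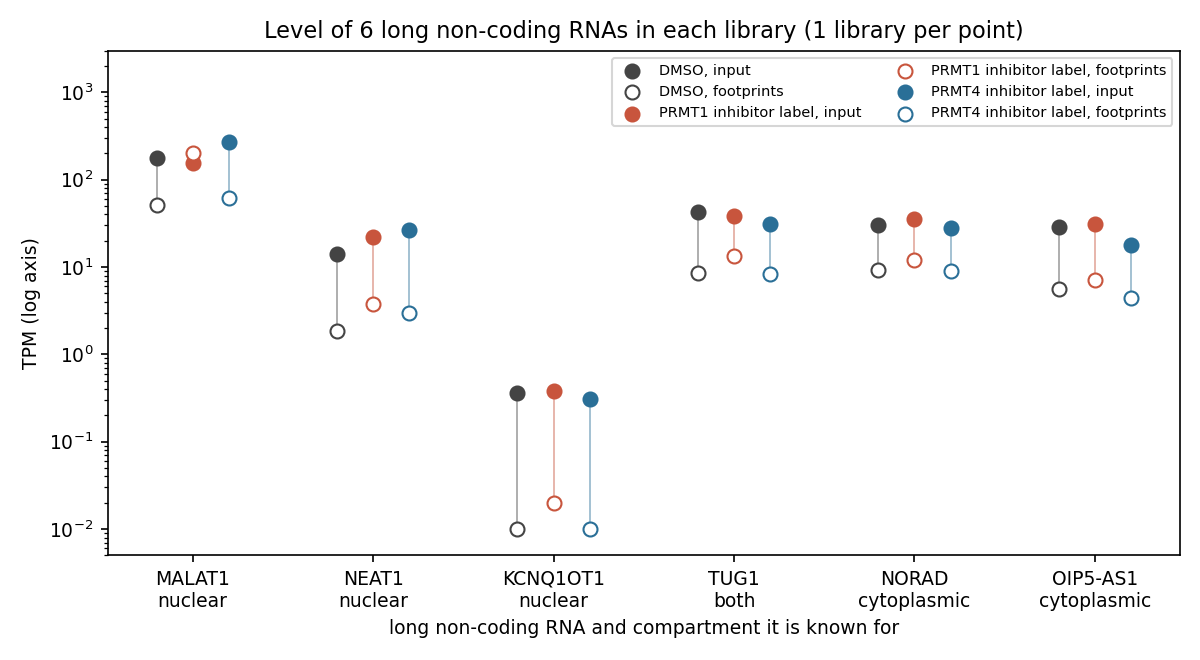
TPM (log axis) of each RNA in the 6 libraries, filled points for input and open points for footprints, 1 library per point, joined within a treatment label. Footprints lie below input in every pair except MALAT1 under the PRMT1 label, where footprints stood at 204 TPM and input at 157 TPM.

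For the comparisons, ratios were taken as log2 of (TPM + 1) over (TPM + 1) and centred on the median of the 9040 genes with a mean of at least 5 TPM over the 6 libraries. MALAT1, NEAT1, TUG1, NORAD and OIP5-AS1 passed that filter, 5 of the 6. The pseudocount of 1 understates the change of low values, which bears most on the footprints of NEAT1.

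Whether the nuclear RNAs were carried into the footprint libraries was read first from footprint over input under DMSO. All 5 RNAs had far fewer footprints than their input level: the centred log2 ratio was -1.85 for MALAT1, -2.49 for NEAT1, -2.29 for TUG1, -1.70 for NORAD and -2.27 for OIP5-AS1. All 5 were thus at least 2-fold lower than the median gene, a call that 19% of all genes compared met. The median lncRNA stood at 0.04 and 22.2% of the 257 lncRNAs compared were at least 2-fold lower. A low ratio was thus not general to the lncRNAs compared. Their filter uses the mean of all 6 libraries, footprints included, so lncRNAs with few footprints were less likely to pass. The 257 therefore cannot stand for all lncRNAs in the table. The nuclear RNAs did not sit apart from the cytoplasmic ones. The midpoint of MALAT1 and NEAT1 was -2.17, that of NORAD and OIP5-AS1 was -1.99, and TUG1 lay below both. Without pseudocount or centring, footprint over input was 0.290 for MALAT1 and 0.305 for NORAD, 0.132 for NEAT1 and 0.193 for OIP5-AS1, and 0.198 for TUG1.

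Under the PRMT4 label all 5 again stood at least 2-fold lower (background 20.8%), from -1.97 for NORAD to -3.27 for NEAT1. MALAT1 was at -2.58, TUG1 at -2.25 and OIP5-AS1 at -2.26, and the nuclear midpoint lay 0.81 below the cytoplasmic one. With the input of the other label in place of its own, it lay 0.25 above. With that input MALAT1 was at -1.60, NEAT1 at -2.82, TUG1 at -2.32, NORAD at -2.09 and OIP5-AS1 at -2.83. NEAT1 was the lowest of the 5 in each treatment with its own input and the pseudocount of 1. With a pseudocount of 5 it was not the lowest under DMSO (-1.55, TUG1 at -1.89) or under the PRMT4 label (-2.35, MALAT1 at -2.41).

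Under the PRMT1 label 4 of the 5 stood at least 2-fold lower (background 16.9%), and MALAT1 did not. Its ratio was 0.26, higher than 60.5% of all genes compared, while NEAT1 was at -2.39, OIP5-AS1 at -2.10, NORAD at -1.59 and TUG1 at -1.54. The nuclear midpoint then lay 0.78 above the cytoplasmic one, and this rested on MALAT1, since NEAT1 was below both cytoplasmic RNAs. With the input of the PRMT4 label the MALAT1 ratio was -0.72, still above its DMSO ratio, and the nuclear midpoint less the cytoplasmic one was -0.28. NEAT1 was then at -2.84, OIP5-AS1 at -1.53, TUG1 at -1.47 and NORAD at -1.46.

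**Figure D2:**
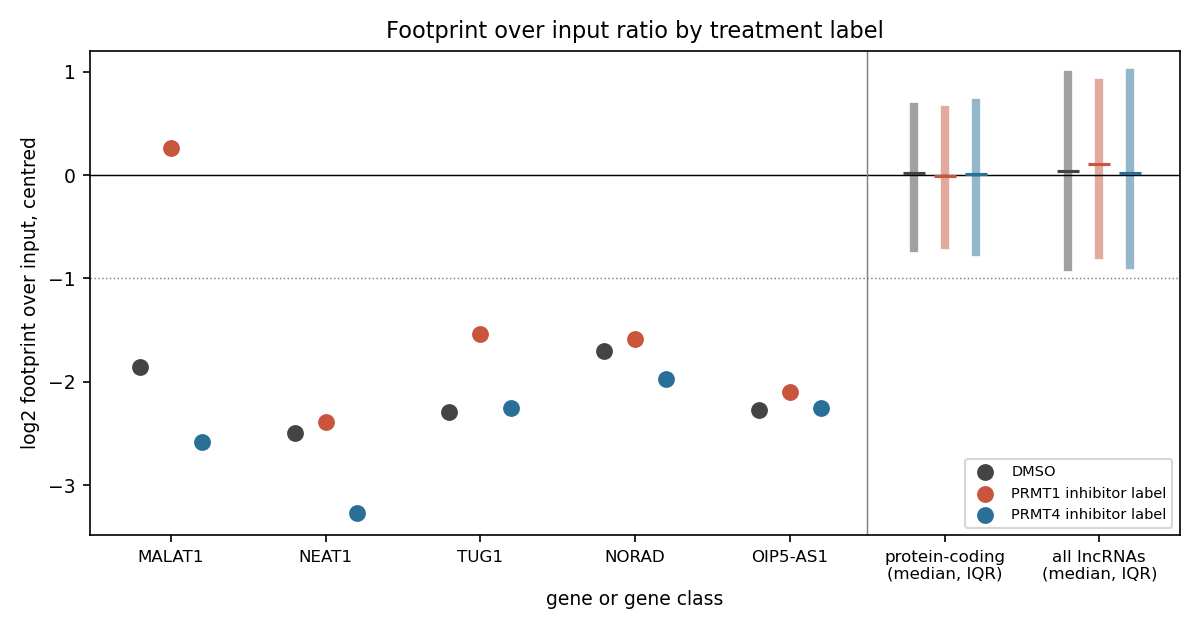
Centred log2 ratio of footprints to input for 5 RNAs (points, 1 per treatment label) and, at the right, the median and interquartile range (IQR) of 8117 protein-coding genes and 257 lncRNAs. The 5 RNAs lie below -1.5 in every case except MALAT1 under the PRMT1 label, at 0.26.

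Set against DMSO, the footprint over input ratio of MALAT1 was higher by 2.12 on the centred log2 scale under the PRMT1 label, which placed it at rank 2 of the 257 lncRNAs. In this measure 3.19% of all genes passed 2-fold upward and 0.929% downward. TUG1 followed at 0.76, while OIP5-AS1 (0.18), NORAD (0.12) and NEAT1 (0.11) lay close to the median gene. With the PRMT4-label input OIP5-AS1 came to 0.74, near TUG1 at 0.82, while NORAD was at 0.23 and NEAT1 turned to -0.35. Under the PRMT4 label NEAT1 was lower by -0.77 and MALAT1 by -0.72, NORAD stood at -0.27, and TUG1 (0.05) and OIP5-AS1 (0.02) were near 0, with 0.808% of all genes at least 2-fold higher and 2.13% lower. Without centring NORAD came to 0.10, so its direction depended on the scale. With the PRMT1-label input OIP5-AS1 came to -0.55, NORAD to -0.39, NEAT1 to -0.33 and TUG1 to -0.02. With the inputs exchanged between the labels, MALAT1 came to 1.13 under the PRMT1 label and 0.26 under the PRMT4 label, so its direction under the PRMT4 label depended on the input used.

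The input libraries alone gave the RNA levels. Under the PRMT1 label none of the 5 RNAs was 2-fold changed, beside 0.619% of all genes that were higher and 0.199% that were lower. NEAT1 had the highest ratio, 0.78, which ranked 7 among 257 lncRNAs. NORAD was at 0.36 and OIP5-AS1 at 0.28, while MALAT1 (-0.01) and TUG1 (-0.01) matched the median gene. The median lncRNA was at 0.14 and 73.2% of lncRNAs lay above 0, relative to a centre of -0.16 that was removed.

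Under the PRMT4 label NEAT1 was 2.33-fold higher in input than in DMSO relative to the median gene (log2 1.22), the only one of the 5 past 2-fold higher, beside 1.98% of all genes, with 0.465% of all genes 2-fold lower. MALAT1 followed at 0.96 and ranked 10 among the lncRNAs, where NEAT1 ranked 6. Without centring these values were 0.86 and 0.60, both still above 0 and both under 2-fold. NORAD stood at 0.23 with centring and at -0.13 without, so its direction depended on the scale. OIP5-AS1 was at -0.30 and TUG1 at -0.08, and both stayed below 0 without centring. Between the inhibitor labels themselves, MALAT1 had the lowest ratio of PRMT1 to PRMT4 input of all 257 lncRNAs compared (-0.96), and OIP5-AS1 was at rank 12 from the top (0.60). None of the 5 was past 2-fold between the labels' inputs, beside 0.664% of all genes higher and 1.03% lower. In footprints 1 of the 5, MALAT1, was past 2-fold higher under the PRMT1 label than under the PRMT4 label (1.87), beside 3.12% of all genes higher and 0.442% lower.

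Footprints labelled PRMT1 inhibitor stood above DMSO for all 5 RNAs. MALAT1 was 4.32-fold higher relative to the median gene (log2 2.11), rank 2 of the 257 lncRNAs, behind a locus without a symbol. It was the only one of the 5 past 2-fold, beside 3.25% of all genes, and its ratio lay between 1.97 and 2.14 in all 8 settings run. NEAT1 was at 0.89, and at 1.15 with a pseudocount of 0.1, which passes 2-fold. TUG1 was at 0.76, NORAD at 0.48 and OIP5-AS1 at 0.46. The median lncRNA stood at 0.19, below each of these, and 68.5% of lncRNAs lay above 0.

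In footprints labelled PRMT4 inhibitor none of these RNAs was 2-fold changed from DMSO, beside 0.642% of all genes that were higher and 0.254% that were lower. NEAT1 was at 0.46, MALAT1 at 0.25, TUG1 and NORAD at -0.02 and OIP5-AS1 at -0.26. Few genes moved far here, and NEAT1 was at percentile 94.8 of all genes compared, MALAT1 at 84.4 and OIP5-AS1 at 14.4. TUG1 (46.8) and NORAD (46.1) were near the middle. The order of the nuclear RNAs was therefore the reverse of that in the PRMT1-label footprints. NEAT1 stood above DMSO in all 4 inhibitor libraries. OIP5-AS1 stood above it in both PRMT1-label libraries and below it in both PRMT4-label libraries. The comparisons of both labels share the DMSO libraries.

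**Figure D3:**
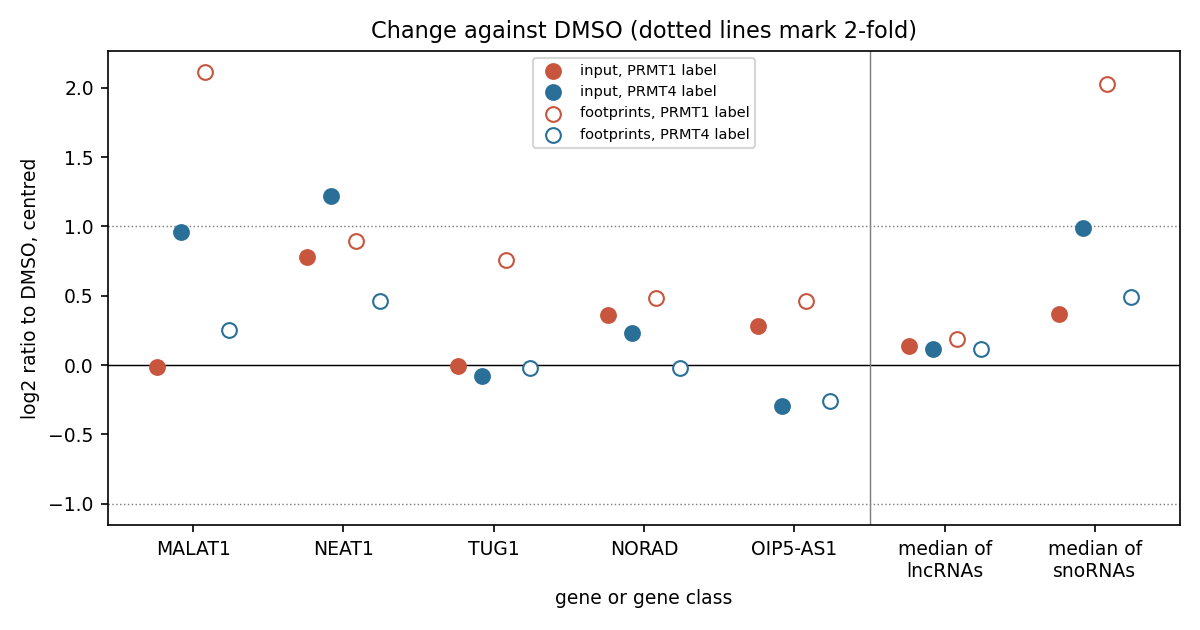
Centred log2 ratio to DMSO of 5 RNAs in input (filled) and footprints (open) for each inhibitor label, with the medians of 257 lncRNAs and of 169 small nucleolar and Cajal body RNAs (snoRNAs). MALAT1 lies at 2.11 in the PRMT1-label footprints and at 0.96 in the PRMT4-label input, where the snoRNA medians lie at 2.03 and 0.99.

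Small nucleolar and Cajal body RNAs, which ribosomes do not translate, were higher in the libraries where MALAT1 was high. The 169 snoRNA and scaRNA genes compared had a median of 7.93 TPM in the DMSO footprints, 34.2 TPM under the PRMT1 label and 12.2 TPM under the PRMT4 label. Their summed level was 8325, 38786 and 10592 TPM. The median centred change was 2.03 in PRMT1-label footprints and 0.49 in PRMT4-label footprints. In input it was 0.37 under the PRMT1 label and 0.99 under the PRMT4 label. In PRMT1-label footprints 132 of the 169 were at least 2-fold higher, beside 3.25% of all genes. The filter uses the mean of all 6 libraries, so a snoRNA could pass it through a high PRMT1-label footprint value alone. That count and the median of 2.03 may therefore be too high. The part of these RNAs in the MALAT1 result was not tested.

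A list of 15 nuclear small RNAs, 9 of them found by symbol, gave the same picture for some members and not for others. In PRMT1-label footprints 8 of 9 lay above 0, counting RN7SK, whose value there is the centring alone. Of the 9, 3 were at least 2-fold higher, beside 3.25% of all genes. SCARNA7, a guide RNA of Cajal bodies, led at 64.8 against 10.7 TPM. RNVU1-7, a variant of the U1 spliceosomal RNA, stood at 2995 against 1011 TPM, and the minor spliceosomal RNA RNU4ATAC at 954 against 1476 TPM. RN7SK, the most abundant of them, was listed at 0 in all 3 footprint libraries although it stood at 15769 to 81934 TPM in input. The summed level of the list was 3528, 5828 and 3659 TPM in the footprints.

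**Figure D4:**
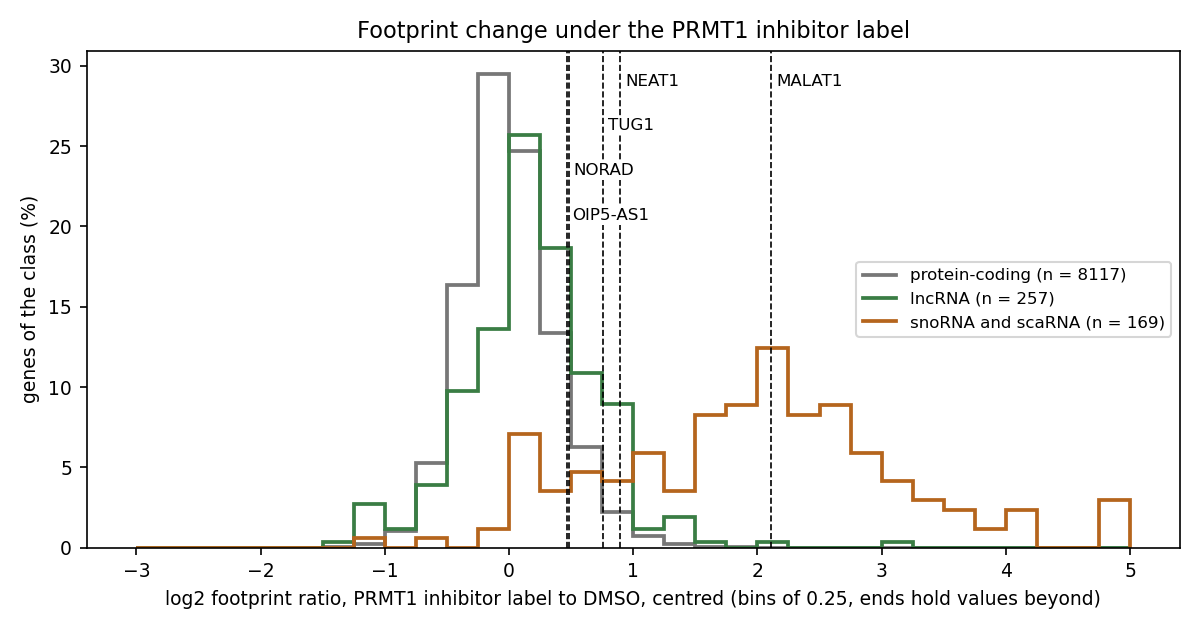
Share of genes (percent of each class) by centred log2 footprint ratio of the PRMT1 label to DMSO, for 8117 protein-coding genes, 257 lncRNAs and 169 snoRNA and scaRNA genes, with 5 RNAs as dashed lines. MALAT1 at 2.11 lies in the body of the snoRNA distribution, and NEAT1 (0.89), TUG1 (0.76), NORAD (0.48) and OIP5-AS1 (0.46) lie in the upper part of the protein-coding and lncRNA distributions.

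The genes whose profile over the 6 libraries was nearest to each RNA were found among 3951 genes with a symbol and a mean of at least 20 TPM, by the Euclidean distance of log2(TPM + 1) values centred per gene. For MALAT1 all 3 nearest were snoRNAs: SNORA64 at a distance of 0.32, SNORA7A at 0.58 and SNORD83A at 0.61, beside a median distance of 2.999 over the candidates. SNORA64 stood at 26.3, 113 and 35.3 TPM in the footprints and at 77.2, 77.4 and 134 TPM in the inputs. For NEAT1 they were SNORA33 (0.34), the microRNA locus MIR3648-2 (0.51) and SNORA74A (0.64). For the RNAs with cytoplasmic roles all were protein-coding: ATXN7L3, XPO1 and SELENOF for NORAD (0.26 to 0.27), and GPBP1, CNPY2 and HOXA5 for OIP5-AS1 (0.28 to 0.43). For TUG1 they were KDM5C (0.20), FOXM1 (0.21) and RUFY3 (0.38). Of the 9040 genes compared, 8117 were protein-coding and 169 were snoRNA or scaRNA genes. The shares among the 3951 candidates were not counted, so protein-coding neighbours are not read as a trait of these RNAs.

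Messages of the proteins that work with these RNAs were described from lists, beside a median of 0 over all genes compared that the centring sets. Paraspeckle protein genes, counted as 21 identifiers because MATR3 has 2, lay below 0 in 17 of 21 in PRMT1-label input (median -0.17), 15 in PRMT4-label input (-0.11), 18 in PRMT1-label footprints (-0.25) and 14 in PRMT4-label footprints (-0.10). None was 2-fold changed. A list of 10 translated control messages, such as PKM and RPLP0, lay below 0 in 8, 6, 8 and 8 in the same comparisons. Their medians were -0.36, -0.16, -0.39 and -0.21, each lower than that of the paraspeckle list. Lower values were thus not particular to messages of these protein partners, and a tie to the RNAs was not tested. SFPQ stood at 107, 93.8 and 74.4 TPM in the inputs and at 44.1, 31.5 and 32.8 TPM in the footprints.

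Nuclear speckle protein genes lay below 0 in 12, 13, 13 and 8 of 16 in the same 4 comparisons (medians -0.03, -0.13, -0.24 and -0.04), again with none 2-fold changed. In PRMT1-label footprints, where MALAT1 was highest, the splicing factor SRSF2 was at 464 against 779 TPM (-0.60) and the lowest of the list, and ACIN1 was the highest (0.20).

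Among 11 genes linked to NORAD and Pumilio proteins, PUM2 stood at 27.6, 27.8 and 20.9 TPM in the inputs and at 15.2, 13.1 and 14.1 TPM in the footprints. The list lay below 0 in 5, 9, 9 and 9 of 11 in the 4 comparisons, with the topoisomerase TOP1 lowest in PRMT4-label input (-0.92) and in PRMT1-label footprints (-1.03, past 2-fold lower beside 0.575% of all genes).

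For OIP5-AS1, the RNA-binding protein ELAVL1 (HuR) stood at 66.3, 50.6 and 41.6 TPM in the inputs and at 139, 92.1 and 119 TPM in the footprints, and its neighbour gene OIP5 at 11.1, 10.5 and 8.10 TPM in the inputs. All 5 genes of that list lay below 0 in PRMT1-label footprints (median -0.22), where OIP5-AS1 was above 0. The translated control messages described above also lay mostly below 0 there, with a lower median. Values below 0 were thus not particular to this list, and a tie to OIP5-AS1 was not tested. Of the Polycomb and TUG1 partners, RBBP7 was the lowest in PRMT1-label footprints, at 87.6 against 200 TPM (-1.04), and EZH2 the highest, at 19.7 against 18.2 TPM (0.25). In the imprinted domain of KCNQ1OT1, CDKN1C, a cell cycle inhibitor silenced on the paternal copy, stood at 2.32, 1.67 and 1.58 TPM in the inputs and at 7.76, 3.43 and 5.79 TPM in the footprints. PHLDA2 of the same domain was at 10.5, 4.98 and 8.20 TPM in the footprints (-0.80 under the PRMT1 label). CD81, also of the domain, went the other way, at 3.69, 6.37 and 4.31 TPM (0.80 under the PRMT1 label). Of the 4 domain genes that passed the filter, 1 lay above 0 and 3 below in PRMT1-label footprints. CDKN1C did not pass.

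Of the genes beside MALAT1 and NEAT1 on chromosome 11, FRMD8 and ZNRD2 did not share their change. In PRMT1-label footprints they were at 0.25 and -0.21, against 2.11 for MALAT1 and 0.89 for NEAT1. In PRMT4-label input they were at 0.30 and -0.11, against 0.96 for MALAT1 and 1.22 for NEAT1. Of 16 genes for RNA 3′ end processing and decay, 14 passed the filter and none was 2-fold changed in the 4 comparisons. The list includes ELAC2 and subunits of RNase P, the enzyme that cuts the MALAT1 3′ end. ELAC2 stood at 27.4, 21.2 and 18.8 TPM in the inputs, and RPP30 at 51.8, 51.4 and 31.4 TPM.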

How the data were processed

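The series held 6 libraries of HEK293T cells, 1 input and 1 footprint library for each of 3 treatments. The authors deposited 1 table of TPM per gene and library, printed to 2 decimals, in which every column matched a library. Per the submitters' processing notes, the build was GRCh37.p13 and the tools included RSEM 1.2.22, STAR 2.4.2a, cutadapt 1.18 and Bowtie 1.1.2, whose roles and order are not given. TPM keeps no depth and is a share of a fixed total, so abundant small RNAs lower all other values. The table had 60461 identifiers, of which 41 copies from the Y pseudoautosomal region, all at 0, were dropped. GENCODE release 29 gave gene types for 56157 identifiers, and 55725 had a symbol. Its build is GRCh38, so no genome coordinates are printed.

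Ratios, filter and centring are described with the results (Python 3.11.15, numpy 2.4.6, pandas 2.3.3) and were tested on simulated data. Called means at least 2-fold. The log2 centre removed was -0.16 and -0.37 for the inputs labelled PRMT1 and PRMT4 inhibitor, -0.15 and -0.01 for their footprints. Genes named were the 6 members, the 3 nearest profiles of each member compared, and the highest and lowest of each list. Genes outside that rule were picked with their values in view, such as the markers VIM, KRT18, PAX2, NEFM and HBA1, and SFPQ, PUM2, OIP5, CDKN1C, RPP30 and RNVU1-7 from the lists, and likewise the tract motifs of MALAT1 and NEAT1. Some listed genes are not reported here. The members and lists were chosen with earlier results of these data known. An alternative was taken to move a value when it crossed 2-fold or shifted it by over 1.5-fold.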

Additional observations from a re-analysis of the deposited data

Results flagged for a closer look

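In 5 cases the inhibitor labels moved an RNA to opposite sides of the same DMSO library. Each rests on 1 library per label, and the difference was not tested. Values are the centred log2 ratio under the PRMT1 label less that under the PRMT4 label. In input the difference was -0.97 for MALAT1, from -0.01 and 0.96, and 0.58 for OIP5-AS1, from 0.28 and -0.30. In footprints it was 0.77 for TUG1, from 0.76 and -0.02, 0.50 for NORAD, from 0.48 and -0.02, and 0.73 for OIP5-AS1, from 0.46 and -0.26. For MALAT1 in input, TUG1 and NORAD, 1 of the values lay within 0.03 of 0, so the opposite sign rests on the difference between the labels more than on 2 opposite changes.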

How the results depend on the processing

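No paired analysis was possible because each group has 1 library, and none could be left out. In PRMT4-label input, where NEAT1 alone was past 2-fold, 0 members were past it with a pseudocount of 5, with no filter, with no centring and after rescaling without small and mitochondrial RNAs. In PRMT1-label footprints 2 members, MALAT1 and NEAT1, were past it with a pseudocount of 0.1. The nuclear less cytoplasmic footprint over input value of 0.78 under the PRMT1 label was 1.30 with no filter and -0.28 with the other label's input, and that of -0.81 under the PRMT4 label was 0.25 with the other input. Its change against DMSO was 0.97 under the PRMT1 label, or 1.05 with a pseudocount of 0.1, -0.036 with no filter and -0.094 with the other input, and under the PRMT4 label -0.62, or 0.44 with the other input. With no filter KCNQ1OT1 enters at values near 0, where the pseudocount sets its ratio, and becomes the middle nuclear value or moves it. The remaining 55 of 67 such values stayed on their side of 2-fold and within 1.5-fold.

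Over the 8 settings the genes at least 2-fold higher numbered 32 to 100 in PRMT1-label input (56 as reported), 76 to 263 in PRMT4-label input (179), 166 to 427 in PRMT1-label footprints (294) and 28 to 151 in PRMT4-label footprints (58). Of the genes past 2-fold, the share that was higher was 81.0% in PRMT4-label input 27.1% without centring and 38.4% after rescaling, and 85.0% in PRMT1-label footprints and 70.1% without centring. In PRMT1-label input it was 75.7% and 64.1%. Depth is unknown, and footprint values of NEAT1 under 4 TPM and of KCNQ1OT1 at 0.01 to 0.02 TPM limit what their ratios can show.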

Other observations

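Other lncRNAs of known location spanned a wide range of footprint over input. Under DMSO the 12 of 21 listed cytoplasmic lncRNAs that passed the filter ran from SNHG1, a snoRNA host gene, at 1.32 to BCYRN1, a short RNA of the neuronal cytoplasm derived from an Alu element, at -5.86, with a median of -0.23. BCYRN1 stood at 197 TPM in the DMSO input and 2.63 TPM in the DMSO footprints. The 7 of 20 listed nuclear lncRNAs that passed ran from EBLN3P at 0.89 to FTX at -0.89, with a median of -0.42. The ranges of the nuclear and cytoplasmic lncRNAs that passed overlapped. The filter counts footprints, so lncRNAs with few of them were less likely to pass. The nuclear FIRRE, at 6.37 TPM in the DMSO input and 2.11 TPM in the DMSO footprints, did not. These ranges and medians therefore cannot stand for the whole lists.

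In PRMT1-label footprints the cytoplasmic list was above 0 in 9 of 12, with SNHG5 at 138 against 54.8 TPM (1.46) and DANCR lowest at 79.4 against 133 TPM (-0.60). The nuclear list was above 0 in 5 of 7, led by PURPL, a p53-regulated lncRNA, at 19.5 against 11.2 TPM (0.89). The locus ENSG00000270066, which has no symbol here, had the largest footprint change of the 257 lncRNAs under the PRMT1 label, at 324 against 39.4 TPM (3.15).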
